A study of Homo sapiens with 15 samples.

Results

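A set of 10 genes of the YAP, TAZ and TEAD pathway were followed from human induced pluripotent stem cells (hiPSCs) through retinal organoids (ROs) to the cells cultured from them. They were chosen by name, and all 10 were found by symbol among the 19684 genes of the tables: YAP1, WWTR1 (which encodes TAZ), TEAD1, TEAD2, TEAD3, TEAD4, LATS2, AMOTL2, ANKRD1 and AJUBA. The rule uses no measured value, but the genes were listed with earlier results of these data known. Poly(A) RNA was sequenced in 15 libraries, 3 for each of 5 groups. Every group came from BC1-GFP, an hiPSC line that carries a GFP reporter, with no other genetic change named. The groups were undifferentiated hiPSCs grown on Matrigel, the neural retina layers of ROs at day 70 (D70-RO) and at day 150 (D150-RO), and cells labelled induced Müller glial cells (iMGCs) at passage 1 (P1-iMGC) and at passage 5 (P5-iMGC). The iMGCs were taken on the fifth day of the passage. They had been grown from dissociated D150-RO neural retina as flat cultures on Matrigel, whereas ROs grew in suspension. The paper gives the same share of fetal bovine serum for the medium of the iMGCs and that of the ROs.

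The Hippo pathway is a kinase cascade that restrains growth. MST and LATS kinases phosphorylate the coactivators YAP and TAZ and keep them out of the nucleus, and unphosphorylated YAP and TAZ enter it and switch on genes through the DNA-binding TEAD proteins. In the retina the pathway is known for its part in progenitor growth and for holding Müller glia, the main glial cells of the retina, out of the cell cycle. Much of this control acts on the proteins, and RNA-seq measures only the transcripts.

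Levels are given as FPKM, the authors' value scaled to transcript length and to the number of mapped fragments, so genes can be compared with each other on it. Differences were tested on the expected counts (estimated reads per gene) with edgeR's quasi-likelihood test and TMM scaling, which sets the typical gene to no change. Called genes are those with a Benjamini-Hochberg adjusted p under 0.05 that differed by 2-fold or more. The FPKM and TMM scales differed most between iMGCs and D150-ROs, and the cause was not tested. The median gene was lower by 0.64 (log2) on the FPKM scale than on the TMM scale for P1-iMGC vs D150-RO, and by 0.70 for P5-iMGC vs D150-RO. For the other comparisons the shift is given as FPKM minus TMM, so that positive values mean higher on the FPKM scale. It was 0.36 (D150-RO vs hiPSC), 0.22 (D150-RO vs D70-RO), 0.14 (D70-RO vs hiPSC) and −0.06 (P5-iMGC vs P1-iMGC). Calls below are therefore relative to the typical gene. Where the FPKM scale changes a direction or a call, it is given for most members and for some genes of the other lists. Library totals lay between 11349600 (D70-RO replicate 2) and 20398755 expected counts. No pair of replicates differed by as little as sampling noise (chi-square per degree of freedom 2.33 to 33.6).

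The sources give 3 independent experiments per group in one place and 2 for hiPSCs and ROs in another, so p-values measure the spread between these libraries, which may in part be technical. They also name 2 sequencing companies without saying which libraries went to which, and if a batch ran along with the groups, the data cannot tell one from the other: batch and group cannot be told apart. In bulk RNA, fewer cells of a type and less RNA per cell cannot be told apart.

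The labels of the hiPSCs and ROs were borne out by their markers, and those of the iMGCs only in part. POU5F1 lay between 1924 and 2150 FPKM in hiPSCs, the summed level of 5 retinal progenitor genes between 542 and 664 FPKM in D70-ROs, and the photoreceptor gene CRX between 136 and 150 FPKM in D150-ROs. Of 8 Müller glia genes, 5 averaged at least 1 FPKM in P1-iMGCs and 6 in P5-iMGCs. The number was also 6 in hiPSCs and was 7 at each RO stage, so it does not set iMGCs apart. VIM stood at 2141 to 2901 FPKM over the 6 iMGC libraries, while RLBP1 was listed at 0 in 5 of them and at 0.09 FPKM in the other. AQP4 was at 0 in all 6, but averaged at most 0.483 FPKM (hiPSC) in any group. CRYAB and APOE averaged 30.2 and 37.2 FPKM in P1-iMGCs and 134 and 34.5 in P5-iMGCs, against 10.9 and 13.6 in D150-ROs. In hiPSCs they averaged 1.22 and 551 FPKM, so APOE was highest there. GLUL, SLC1A3 and SOX9 were lower, at 13.4, 0.373 and 5.21 FPKM in P1-iMGCs against 100, 28.0 and 42.6 in D150-ROs. In P5-iMGCs these 3 averaged 14.6, 1.19 and 3.59 FPKM, and in hiPSCs 77.1, 6.64 and 4.94 FPKM. The summed level of 8 mesenchymal genes was 2248 to 2354 FPKM in P1-iMGCs and 2539 to 2785 FPKM in P5-iMGCs, against 21.1 to 24.9 FPKM in D150-ROs, with 7 of the 8 at 1 FPKM or more in each passage. For 6 smooth muscle and pericyte genes it was 2266 to 2451 and 2205 to 2240 FPKM, against 14.0 to 15.4 FPKM. COL1A1 made up most of the mesenchymal sum (mean 2000 and 2216.5 FPKM in P1- and P5-iMGCs) and TAGLN most of the other (1940 and 1823 FPKM). MYH11 averaged at most 0.02 FPKM in iMGCs. The 8 Müller glia genes, with VIM as most of their sum, reached 2229 to 2267 and 2984 to 3094 FPKM, against 1206 to 1374 FPKM in D150-ROs. The mesenchymal and smooth muscle markers differed between the same iMGC and D150-RO libraries that are compared below. Their part in those results was not tested.

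YAP1 (chr11:102110461-102233423, plus strand, GRCh38, as GENCODE 29 places the identifier ENSG00000137693) was high in every group and lowest in D150-ROs. It measured 47.6, 48.1 and 43.0 FPKM in the hiPSC libraries, 46.0, 46.3 and 55.4 in those of D70-ROs, 31.6, 30.8 and 28.5 in those of D150-ROs, 55.6, 59.3 and 55.7 in P1-iMGCs and 50.8, 51.1 and 48.3 in P5-iMGCs. The 3 D150-RO libraries lay below all 12 others. The order of the mean levels was P1-iMGC (56.8 ± 2.10 FPKM, SD, n = 3), P5-iMGC (50.1 ± 1.52), D70-RO (49.2 ± 5.36), hiPSC (46.2 ± 2.80) and D150-RO (30.3 ± 1.62). The neighbours D70-RO and hiPSC overlapped and did not differ by the test (log2 fold change −0.01 ± 0.11, SE, edgeR adjusted p = 0.955). On the ratio of mean FPKM this difference was 0.09. P5-iMGC and D70-RO overlapped on the FPKM scale, while on the TMM scale P5-iMGCs were higher (0.60 ± 0.08, edgeR adjusted p = 8.09e-05).

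WWTR1, which encodes TAZ, the paralog of YAP (chr3:149517235-149736714, minus strand), was low until day 70 and higher from day 150. Its values were 7.48, 6.34 and 6.24 FPKM in the hiPSC libraries, 7.60, 7.41 and 7.46 in those of D70-ROs, 22.1, 21.9 and 17.4 in those of D150-ROs, 29.3, 29.9 and 28.9 in P1-iMGCs and 29.8, 29.2 and 31.3 in P5-iMGCs. The libraries form 3 levels without overlap: the 6 libraries of hiPSCs and D70-ROs, the 3 of D150-ROs and the 6 of iMGCs. Within the first level hiPSCs and D70-ROs overlapped (log2 fold change 0.32 ± 0.13, adjusted p = 0.0433), as did P1- and P5-iMGCs within the last (0.18 ± 0.04, adjusted p = 0.00177).

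Set beside each other per length, YAP1 outweighed WWTR1 in all 15 libraries, by a margin that narrowed after day 70. WWTR1 made up 12.6% ± 0.969 (SD, n = 3) of the summed YAP1 and WWTR1 FPKM in hiPSCs and 13.3% ± 1.24 in D70-ROs. It then made up 40.2% ± 2.00 in D150-ROs, 34.1% ± 0.482 in P1-iMGCs and 37.6% ± 1.56 in P5-iMGCs. The sum itself was similar in hiPSCs, D70-ROs and D150-ROs (52.9 ± 3.19, 56.7 ± 5.34 and 50.7 ± 4.28 FPKM), where the lower YAP1 of D150-ROs was set off by the higher WWTR1. It was 86.2 ± 2.57 FPKM in P1-iMGCs and 80.2 ± 0.484 in P5-iMGCs. No test was made on shares, because 3 libraries against 3 cannot reach a two-sided exact permutation p under 0.10.

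**Figure D1:**
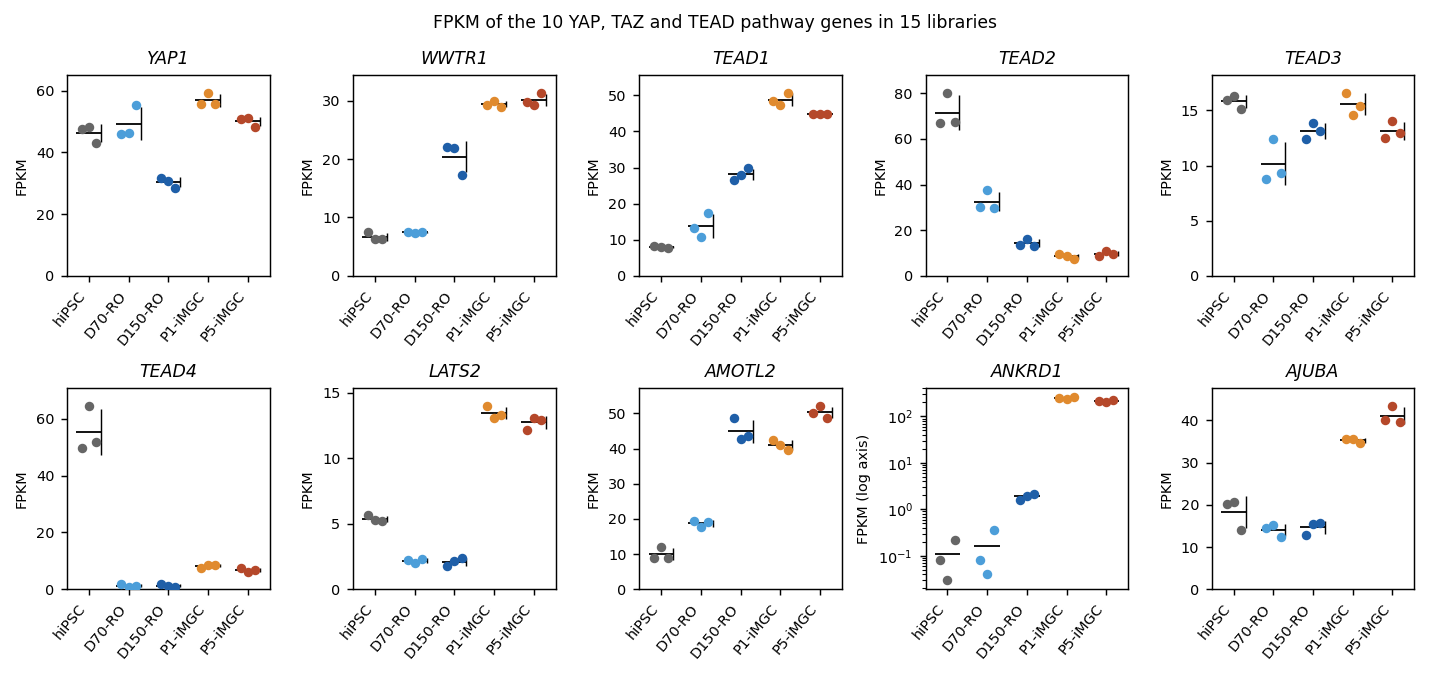
FPKM of the 10 genes (y axis, from 0; logarithmic for ANKRD1) in the 5 groups (x axis), with 1 point per library, a horizontal line at the mean of 3 libraries and a vertical bar of ± 1 SD (not drawn for ANKRD1). TEAD2 and TEAD4 are highest in hiPSCs, WWTR1 and AMOTL2 are higher from D150-ROs on, and LATS2, AJUBA and ANKRD1 are highest in the iMGCs.

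The plot of FPKM by library shows the 10 genes together. The 4 TEAD genes, whose proteins are the DNA-binding partners of YAP and TAZ, did not move as a family. TEAD1 (chr11:12674591-12944483, plus strand) measured 8.25, 8.02 and 7.70 FPKM in the hiPSC libraries, 13.2, 10.9 and 17.3 in those of D70-ROs, 26.6, 27.9 and 29.8 in those of D150-ROs, 48.4, 47.3 and 50.7 in P1-iMGCs and 45.0, 44.9 and 44.9 in P5-iMGCs. Each of these groups lay above the one before it without overlap, except that P5-iMGCs lay below P1-iMGCs, a step that did not pass the test (log2 fold change −0.07 ± 0.04, adjusted p = 0.128). TEAD2 (chr19:49340595-49362457, minus strand) ran the other way. It measured 67.0, 80.2 and 67.5 FPKM in the hiPSC libraries, 30.4, 37.4 and 29.8 in those of D70-ROs, 13.5, 16.3 and 13.2 in those of D150-ROs, 9.58, 8.77 and 7.31 in P1-iMGCs and 8.75, 10.9 and 9.48 in P5-iMGCs. The 3 steps from hiPSCs to D70-ROs, D150-ROs and iMGCs were downward on the FPKM scale, with overlap only between the 2 passages. On the TMM scale the last of these steps was not called (−0.15 ± 0.10 at passage 1 and 0.16 ± 0.09 at passage 5).

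TEAD4 (chr12:2959330-3040673, plus strand), known in development for its role in the first lineage of the placenta, was far higher in hiPSCs than in ROs. It stood at 49.6, 64.4 and 51.8 FPKM in hiPSCs, while the D70-RO libraries held 1.77, 0.75 and 1.24 FPKM and those of D150-ROs 1.76, 1.12 and 0.94 FPKM. It returned at a lower level in culture, with 7.61, 8.58 and 8.43 FPKM in P1-iMGCs and 7.64, 6.04 and 6.67 in P5-iMGCs. The RO values rest on few reads, 90 expected counts over the 3 D70-RO libraries and 89 over the 3 D150-RO libraries. TEAD3 (chr6:35473597-35497076, minus strand) varied least of the 4, with group means from 10.2 ± 1.96 FPKM (D70-RO) to 15.8 ± 0.598 FPKM (hiPSC). Its order on the FPKM scale was hiPSC, P1-iMGC (15.5 ± 0.995), D150-RO (13.1 ± 0.735), P5-iMGC (13.1 ± 0.802) and D70-RO. hiPSC overlapped P1-iMGC and D150-RO overlapped P5-iMGC, and on the TMM scale both these neighbours stood in the opposite order (adjusted p = 0.00866 and 1.03e-08).

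As shares of their summed FPKM, the TEAD genes changed rank between groups. In hiPSCs TEAD2 made up 47.5% ± 0.0586 and TEAD4 36.6% ± 1.45, while TEAD1 made up 5.34% ± 0.561 and TEAD3 10.5% ± 0.842. In D70-ROs TEAD2 led with 56.2% ± 4.62, followed by TEAD1 with 24.0% ± 6.19, and TEAD4 held 2.21% ± 1.03. TEAD1 led in D150-ROs (49.4% ± 2.53) and in both passages of iMGCs (60.2% ± 1.57 and 60.3% ± 0.938). TEAD2 then held 25.2% ± 2.18, 10.6% ± 1.43 and 13.0% ± 1.26, and TEAD4 2.26% ± 0.860, 10.1% ± 0.799 and 9.11% ± 1.20. The sum of the 4 genes was 150.6 ± 15.9 FPKM in hiPSCs and at most 81.1 ± 1.62 FPKM elsewhere (P1-iMGC), with 57.8 ± 3.65, 56.9 ± 2.48 and 74.5 ± 1.11 FPKM in D70-ROs, D150-ROs and P5-iMGCs.

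**Figure D2:**
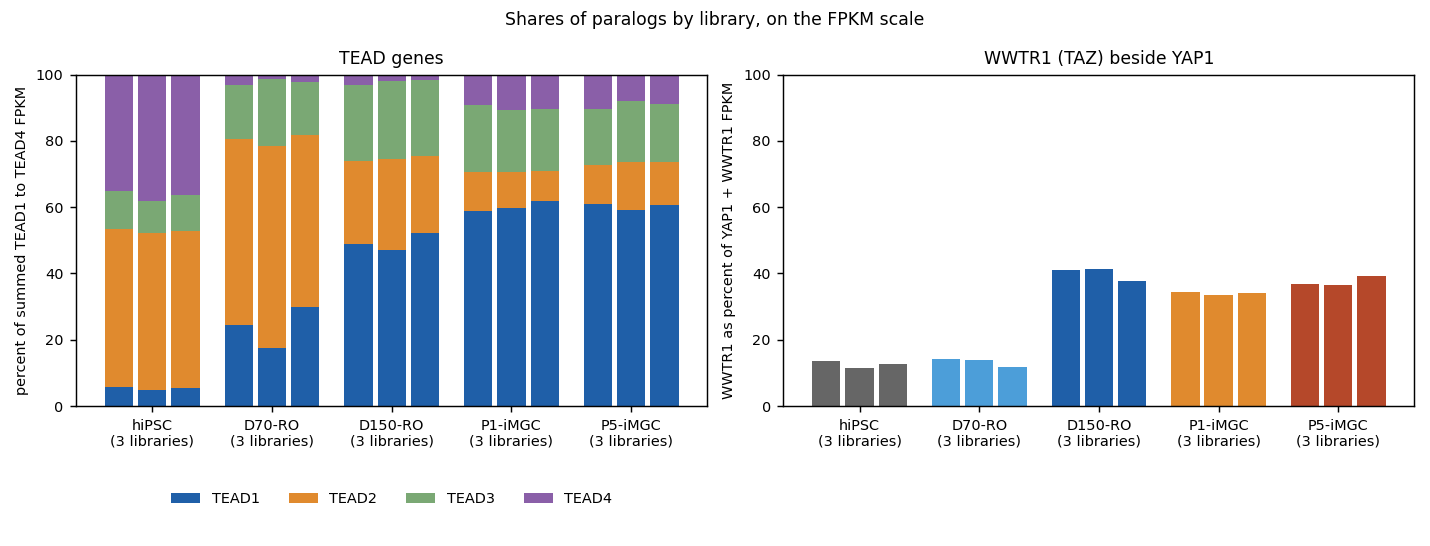
Left, each TEAD gene as a percent of the summed TEAD1 to TEAD4 FPKM (y axis) in each of 15 libraries (x axis, 3 bars per group); right, WWTR1 as a percent of the YAP1 plus WWTR1 FPKM in the same libraries. TEAD1 goes from 5.34% of the TEAD sum in hiPSCs to 60.2% in P1-iMGCs, and WWTR1 from 12.6% in hiPSCs to 40.2% in D150-ROs.

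The bars of shares by library show that 1 TEAD gene led in all 3 libraries of each group, TEAD2 in hiPSCs and D70-ROs and TEAD1 in the other groups. Lower ranks differed within 2 groups. TEAD3 stood above TEAD1 in D70-RO replicate 2 only, where the share of TEAD1 was 17.7% against up to 30.03% in that group, and TEAD4 stood above TEAD2 in P1-iMGC replicate 3 only. TEAD1 has the longest transcript of the 4 and TEAD4 the shortest (6415 and 1605 bases, as the counts and FPKM imply), so these ranks hold per length and not per read.

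Upstream of the coactivators, LATS2 (chr13:20973032-21061547, minus strand) is one of the kinases that phosphorylate YAP and TAZ, and its transcription is itself raised by them as feedback. It measured 5.63, 5.32 and 5.19 FPKM in the hiPSC libraries, 2.20, 2.00 and 2.34 in those of D70-ROs, 1.74, 2.12 and 2.36 in those of D150-ROs, 14.0, 13.1 and 13.3 in P1-iMGCs and 12.1, 13.1 and 13.0 in P5-iMGCs. All 6 iMGC libraries lay above the 3 hiPSC libraries, and these above the 6 RO libraries. The 2 RO stages overlapped (log2 fold change −0.30 ± 0.15, adjusted p = 0.105), and the passages did not differ by the test (−0.02 ± 0.05, adjusted p = 0.807). Its paralog LATS1 stood at 8.38 FPKM in P1-iMGCs and 21.7 FPKM in D150-ROs, a difference of −0.64 ± 0.05 (log2, TMM scale) that did not reach 2-fold and was called lower with limma on log2(FPKM + 1) (−1.28 ± 0.07, adjusted p = 1.13e-07).

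AMOTL2 (chr3:134355874-134375479, minus strand) encodes an angiomotin, a junction protein that binds YAP and holds it in the cytoplasm, and is a known target of YAP as well. It measured 8.97, 12.0 and 8.94 FPKM in the hiPSC libraries, 19.3, 17.6 and 19.2 in those of D70-ROs, 48.8, 42.7 and 43.5 in those of D150-ROs, 42.5, 41.1 and 39.7 in P1-iMGCs and 50, 52.1 and 48.8 in P5-iMGCs. Its main step lay between day 70 and day 150, and iMGCs stayed close to D150-ROs on the FPKM scale. P1-iMGCs were below D150-ROs on the FPKM scale (log2 ratio of means −0.13) and above them on the TMM scale (log2 fold change 0.52 ± 0.05). P5-iMGCs were above D150-ROs on both scales (0.16 on FPKM and 0.87 ± 0.06 on TMM).

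AJUBA (chr14:22971174-22982642, minus strand) encodes a LIM-domain adaptor of cell junctions that binds LATS kinases and limits their action on YAP. It measured 20.3, 20.7 and 14.0 FPKM in the hiPSC libraries, 14.6, 15.2 and 12.4 in those of D70-ROs, 12.8, 15.4 and 15.8 in those of D150-ROs, 35.6, 35.5 and 34.6 in P1-iMGCs and 40.2, 43.4 and 39.7 in P5-iMGCs. The hiPSC and RO libraries overlapped, and all 6 iMGC libraries lay above them.

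ANKRD1 (chr10:90912096-90921276, minus strand), an ankyrin-repeat protein of muscle and stretched cells and a widely used readout of YAP and TAZ, had by far the widest range of the 10. It was listed at 0.08, 0.03 and 0.22 FPKM in hiPSCs and at 0.08, 0.04 and 0.36 in D70-ROs, from 13 and 17 expected counts in all. It reached 1.60, 1.92 and 2.18 FPKM in D150-ROs, from 182 counts. In P1-iMGCs it stood at 246, 243 and 262 FPKM and in P5-iMGCs at 216, 207 and 221, from 24873 and 21209 counts. No group overlapped another except hiPSCs and D70-ROs, where the gene was not tested because it was under 1 FPKM in all 6 libraries. It entered the tests of D150-ROs against hiPSCs and D70-ROs only through the D150-RO libraries, the group where it is high.

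TEAD proteins bind the motif GGAATG, so the promoters of the members were read for it on both strands. Windows of 250 bases before to 50 bases after the transcription start were taken from RefSeq (GRCh38.p14), in which 8 of the 10 genes matched by symbol. GGAATG occurs in 14.0% of 35116 such windows, and the motif TGANTCA of AP-1, which often binds beside TEAD proteins, in 7.71%. At least 1 window held GGAATG for YAP1, LATS2, AMOTL2, ANKRD1 and AJUBA. The 8 genes had 1 or 2 windows each, so this reading by gene cannot be set against the 14.0%, which is by window. No match was found in the windows of WWTR1, TEAD2 and TEAD3. ANKRD1 alone among the members held more than 1, with GGAATG at 220 and 128 bases before the start and TGANTCA at 195 bases before it. The 30 bases around each match are given on the strand of the gene, because they are the places where the letters known for TEAD binding lie nearest to the start of members whose levels differed. CCN2, a known target that is not one of the 10, is given for comparison, with 3 matches in its window, of which the 2 nearest the start are shown. The 6 letters of the motif are in capitals, and for AMOTL2 they read as the reverse complement.
ANKRD1 (chr10:90921290-90921319, minus strand): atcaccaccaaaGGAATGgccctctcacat
ANKRD1 (chr10:90921198-90921227, minus strand): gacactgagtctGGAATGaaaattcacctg
AJUBA (chr14:22976884-22976913, minus strand): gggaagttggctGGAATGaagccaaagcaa
AMOTL2 (chr3:134374499-134374528, minus strand): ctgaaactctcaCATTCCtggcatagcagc
LATS2 (chr13:21061560-21061589, minus strand): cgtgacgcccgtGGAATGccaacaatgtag
YAP1 (chr11:102110273-102110302, plus strand): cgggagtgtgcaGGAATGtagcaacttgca
CCN2 (chr6:131951459-131951488, minus strand): ggaaggtggggaGGAATGcgaGGAATGtcc

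These matches describe the letters of the reference and not binding, which was not measured. In AMOTL2 and AJUBA the match lies in the second of 2 windows, 69 and 59 bases before that start, and in LATS2 it begins at base 10 of the transcript. The match of YAP1 lies 162 bases before its start. TEAD1 and TEAD4 had no window in the table.

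From hiPSCs to D70-ROs, 3 of the 9 members tested were called, all lower: TEAD4, LATS2 and TEAD2. Of all 12954 genes tested in this comparison, 43.5% were called and 21.1% were called lower. TEAD4 fell by 5.78 on the log2 scale (± 0.21, SE, adjusted p = 2.2e-09), LATS2 by 1.44 ± 0.14 (2.97e-06) and TEAD2 by 1.26 ± 0.12 (2.83e-06). TEAD1, AMOTL2 and TEAD3 differed without overlap but by less than 2-fold (log2 fold changes 0.81, 0.72 and −0.90). D70-RO replicate 2, the shallowest library, decided 2 of these. Without it TEAD1 (1.02) and TEAD3 (−1.03) were called and the count was 5, and without hiPSC replicate 3 TEAD3 (−1.01) was called.

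D150-ROs differed from hiPSCs in 7 of the 10 members, where 58.8% of all genes were called. WWTR1 rose by 1.498 ± 0.11 (log2, adjusted p = 6.64e-08), TEAD1 by 1.66 ± 0.08 (1.65e-09), AMOTL2 by 1.77 ± 0.13 (5.14e-08) and ANKRD1 by 3.71 ± 0.42 (3.58e-06). TEAD4 fell by 5.96 ± 0.23 (1.65e-10), TEAD2 by 2.73 ± 0.11 (3.03e-10) and LATS2 by 1.74 ± 0.13 (6.71e-08). YAP1 stood just short of the limit (−0.98 ± 0.09), and was called at −1.06 to −1.14 without any 1 of the hiPSC libraries. Without any 1 of the D150-RO libraries ANKRD1 no longer passed the filter, and 6 members were called. Long transcripts were higher in D150-ROs as a whole. With genes divided by length into 4 classes of equal size, the median log2 fold change against hiPSCs was −0.83 in the shortest class and 0.88 in the longest. With this trend taken out, WWTR1 (0.99) and TEAD1 (0.60) fell short of 2-fold and YAP1 (−1.48) and AJUBA (−1.001) passed it.

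Between day 70 and day 150, 4 members were called, at a background of 33.3%. WWTR1 rose by 1.18 ± 0.11 (adjusted p = 1.42e-05), AMOTL2 by 1.05 ± 0.09 (8.99e-06) and ANKRD1 by 3.21 ± 0.50 (0.000362), and TEAD2 fell by 1.47 ± 0.12 (7.34e-06). YAP1 (−0.97 ± 0.08) and TEAD1 (0.85 ± 0.12) changed by less than 2-fold without overlap. YAP1 was called without D70-RO replicate 1 (−1.04), which made the count 5. Leaving out any 1 of the D150-RO libraries again removed ANKRD1 from the test, and 3 were called. WWTR1 (0.82) and AMOTL2 (0.64) fell short, and YAP1 (−1.33) passed, when the length trend was taken out (medians −0.67 and 0.55 in the shortest and longest class). Among genes of the whole table, 49.8% of calls were higher at day 150 on the TMM scale and 63.3% with limma on log2(FPKM + 1).

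The next comparisons set the cultured cells against the D150-ROs from which they were grown. In P1-iMGCs 8 of the 10 members were called, all higher, where 20% of all genes were called higher (44.1% in either direction). ANKRD1 rose by 7.68 ± 0.08 (log2, 205-fold, adjusted p = 3.86e-19). TEAD4 rose by 3.40 ± 0.22 (5.07e-10), LATS2 by 3.34 ± 0.08 (4.94e-15) and AJUBA by 2.03 ± 0.06 (1.66e-14). These 4 were also called with limma on log2(FPKM + 1).

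The other 4 calls depended on the scale. YAP1 rose by 1.72 ± 0.05 on the TMM scale (adjusted p = 1.95e-14), TEAD1 by 1.49 ± 0.04, WWTR1 by 1.19 ± 0.07 and TEAD3 by 1.11 ± 0.07, and as log2 ratios of mean FPKM they differed by 0.91, 0.80, 0.52 and 0.24. All 4 were thus higher in P1-iMGCs on both scales, and called on the TMM scale only. Among all genes, 45.4% of calls were higher in P1-iMGCs on the TMM scale and 22.9% with limma. TEAD2 was not called (−0.15 ± 0.10, adjusted p = 0.187), nor was AMOTL2 (0.52 ± 0.05, 1.61e-07, with the opposite sign on FPKM). Without D150-RO replicate 3 both WWTR1 (0.95) and TEAD3 (0.97) fell short of 2-fold and 6 members were called, and without D150-RO replicate 1 TEAD3 (0.91) did.

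In P5-iMGCs 7 members were called against the same 3 D150-RO libraries, all higher, at a background of 20.8% higher (44.6% in either direction). ANKRD1 rose by 7.51 ± 0.08 (adjusted p = 1.35e-19), LATS2 by 3.31 ± 0.09 (4.13e-15), TEAD4 by 3.25 ± 0.23 (9.09e-10) and AJUBA by 2.26 ± 0.06 (3.68e-15), and limma on FPKM called these 4 as well. YAP1 (1.55 ± 0.05), TEAD1 (1.41 ± 0.05) and WWTR1 (1.36 ± 0.07) were called on the TMM scale only, with log2 ratios of mean FPKM of 0.73, 0.68 and 0.56. TEAD3 (0.92 ± 0.08), AMOTL2 (0.87 ± 0.06) and TEAD2 (0.16 ± 0.09) stayed under 2-fold, and TEAD2 was lower on FPKM (log2 ratio −0.56) while TEAD3 was level on it. TEAD3 was called without P5-iMGC replicate 1 (1.02), for a count of 8. Of all calls, 46.5% were higher in P5-iMGCs on the TMM scale and 22.4% with limma. Because both passages were set against the same D150-RO libraries, their likeness in these values is partly shared.

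**Figure D3:**
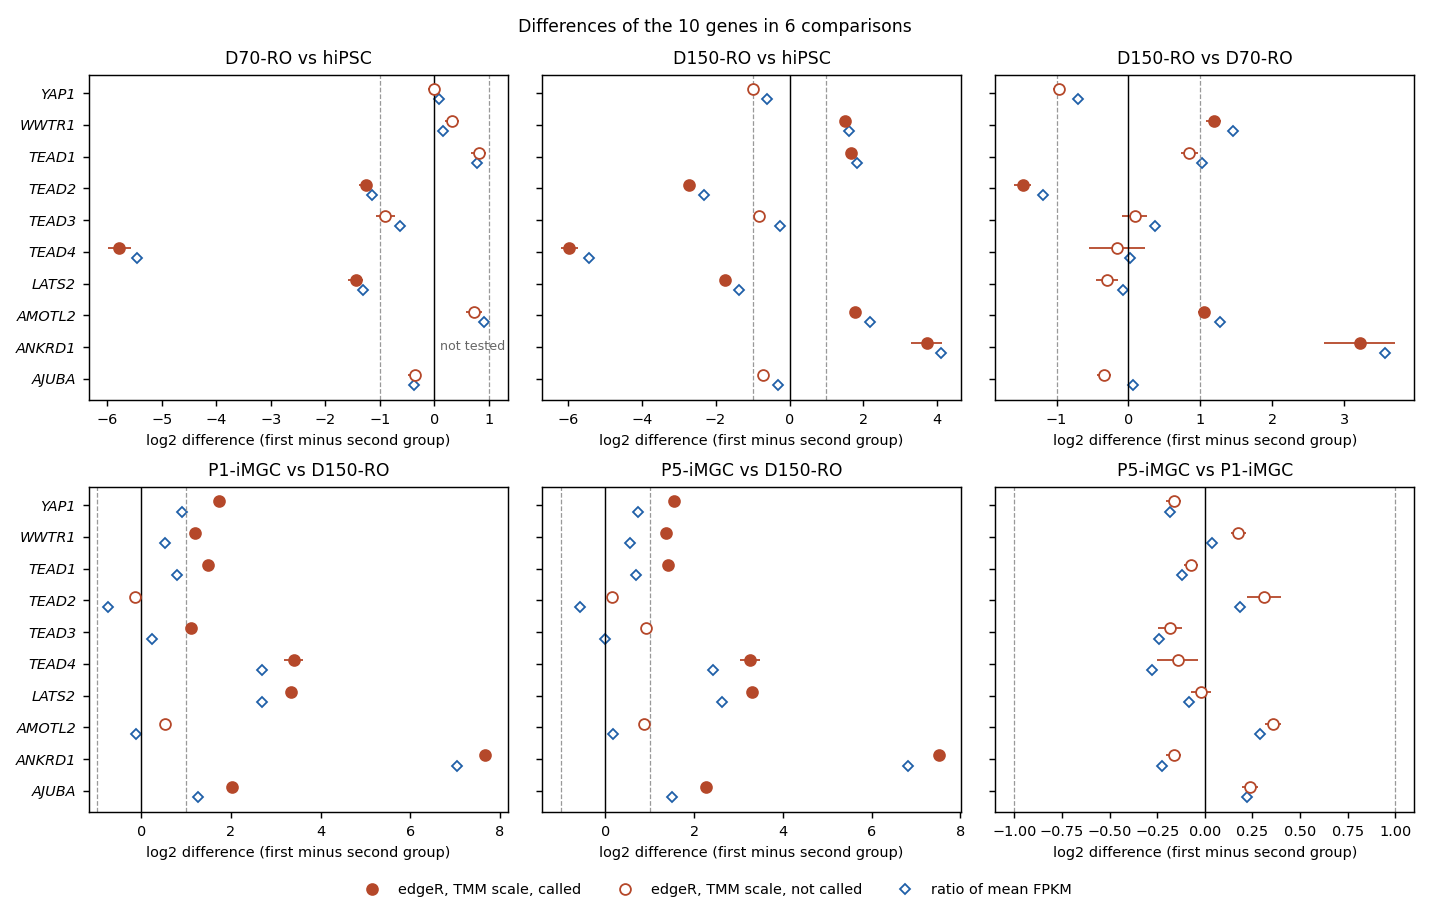
Log2 difference between groups (x axis, first minus second group named above each panel, each panel with its own range) for the 10 genes (y axis): circles are edgeR fold changes on the TMM scale with SE bars, filled where called, diamonds are log2 ratios of mean FPKM, and dashed lines mark 2-fold. In both panels of iMGCs against D150-ROs the diamonds lie to the left of the circles, and ANKRD1, TEAD4, LATS2 and AJUBA lie beyond 2-fold by both.

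The plot of log2 differences shows how close the 2 passages were to each other. From P1- to P5-iMGCs none of the 10 members was called by edgeR, DESeq2 or limma, where 2.92% of all genes were called by edgeR. Small differences were resolved all the same. At an unadjusted p under 0.05, 7 members differed by edgeR, and all 7 also had an adjusted p under 0.05, as did 30.7% of all genes. AMOTL2 (0.36 ± 0.04, adjusted p = 1.89e-07), TEAD2 (0.31 ± 0.09, 0.00947), AJUBA (0.24 ± 0.04, 0.000101) and WWTR1 (0.18 ± 0.04) were higher at passage 5. YAP1 (−0.16 ± 0.04, 0.00268), ANKRD1 (−0.16 ± 0.04, 0.00222) and TEAD3 (−0.18 ± 0.06, 0.0293) were lower. The largest of the 7, that of AMOTL2, amounts to 1.28-fold.

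Other genes known as YAP and TAZ targets were read from a list of 19. In P1-iMGCs vs D150-ROs 15 of the 18 that passed the filter were higher and none lower, where 20% of all genes were called higher. Their median log2 fold change was 3.86 beside −0.05 over all genes tested. Of these 18, 4 (CCDC80, NT5E, PTPN14 and RBMS3) averaged under 1 FPKM in D150-ROs and so entered through the iMGCs. With limma on FPKM 13 were higher and 2 lower. CCDC80, a secreted matrix protein, rose by 9.04 ± 0.09 (0.33 to 243 FPKM, adjusted p = 3.61e-19) and NT5E, the surface enzyme CD73, by 7.19 ± 0.11 (0.663 to 52.8 FPKM, 1.14e-17). CCN1 and CCN2, matricellular proteins and the most used readouts of the pathway, rose by 5.35 ± 0.07 (10.6 to 277 FPKM) and 5.15 ± 0.07 (20.1 to 456 FPKM). They were named after their values were seen. Those not called were F3 (−0.70), FJX1 (−0.87) and GADD45A (0.19), and FOXF2 was under the filter, with 0 counts in every iMGC library. In P5-iMGCs vs D150-ROs again 15 of 18 were higher and none lower, with a median of 3.92, where 20.8% of all genes were called higher. With limma on FPKM, ARHGEF17 (0.78) fell short there and FJX1 (−1.51) was called lower. CCDC80 (9.19 ± 0.10) and IGFBP3, a binding protein of insulin-like growth factors (7.63 ± 0.08, from 7.93 to 947 FPKM), rose most. Many of these genes are also expressed by mesenchymal cells, whose markers are given above.

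**Figure D4:**
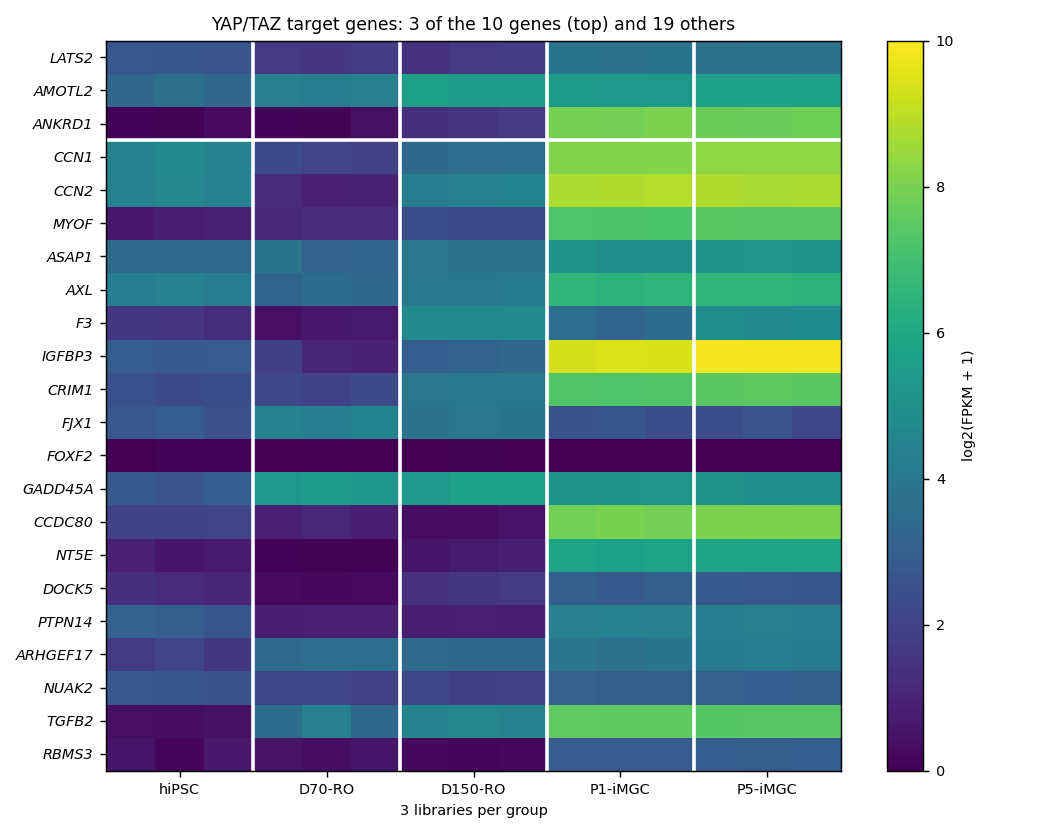
log2(FPKM + 1) (colour scale, 0 to 10) of ANKRD1, LATS2 and AMOTL2 (top rows) and of 19 other YAP and TAZ target genes (rows) in 15 libraries (columns, 3 per group, white lines between groups). Most rows are brightest in the 6 iMGC columns, while F3 is similar in D150-ROs and P5-iMGCs (25.9 and 28.3 FPKM) and GADD45A is as high in ROs as in iMGCs.

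The colour map of targets shows that the same list did not move as one before culture. From hiPSCs to D70-ROs 4 of 16 were higher and 8 lower. Of all genes 43.5% were called there, 33.3% from day 70 to day 150, 58.8% in D150-ROs vs hiPSCs and 2.92% between the passages. Of the 16, 6 (MYOF, F3, CCDC80, DOCK5, PTPN14 and TGFB2) averaged under 1 FPKM in one group and entered through the other. TGFB2 rose by 5.18 ± 0.33 and GADD45A, a stress-response gene, by 2.56 ± 0.16, while CCN2 fell by 4.47 ± 0.19 (21.4 to 1.05 FPKM, adjusted p = 5.81e-09) and PTPN14, a phosphatase that binds YAP, by 3.16 ± 0.17. Between day 70 and day 150, 7 of 14 were higher and none lower, led by F3, the tissue factor of blood clotting (5.43 ± 0.20, 0.52 to 25.9 FPKM), and CCN2 (4.01 ± 0.17). F3 and DOCK5 were under 1 FPKM in D70-ROs and entered through D150-ROs, where they are high. In D150-ROs vs hiPSCs 6 of 16 were higher, led by TGFB2 (5.73 ± 0.13) and F3 (3.44 ± 0.13), and 4 lower, led by PTPN14 (−3.37 ± 0.15) and CCDC80 (−2.14 ± 0.17), and 4 of the 16 (MYOF, CCDC80, PTPN14 and TGFB2) were under 1 FPKM in one group. Between the passages 1 of 18, F3, was called (1.54 ± 0.07, 10.2 to 28.3 FPKM, adjusted p = 2.29e-14).

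Among 15 kinases and scaffolds of the Hippo core, 4 were higher and 1 lower in P1-iMGCs vs D150-ROs, and 3 and 1 in P5-iMGCs. Of all genes, 44.1% and 44.6% were called in these comparisons. On the FPKM scale (limma) the split of the 15 was 1 higher and 4 lower in each passage. FRMD6, a FERM-domain protein that activates the cascade, was higher by 6.69 ± 0.08 and 6.90 ± 0.08 (2.55 FPKM in D150-ROs, 173 and 197 FPKM in iMGCs, adjusted p = 8.23e-19 and 1.93e-19), and was called on both scales. WWC2, of the KIBRA family of scaffolds, followed (1.55 ± 0.05 and 1.70 ± 0.06), and WWC1, which is KIBRA itself, was lower (−1.98 ± 0.07 and −1.44 ± 0.07). Before culture, TAOK3 and LATS1 were higher at both stages than in hiPSCs (1.45 ± 0.20 and 1.07 ± 0.17 at day 70, 2.54 ± 0.16 and 2.22 ± 0.09 at day 150). WWC2 (−2.41 ± 0.20) and WWC3 (−1.71 ± 0.13) were lowest in the first comparison and WWC3 (−1.52 ± 0.11) and SAV1 (−1.39 ± 0.10), a scaffold of the MST kinases, in the second. In all 2 rose and 3 fell at day 70, and 4 rose and 3 fell at day 150, where 43.5% and 58.8% of all genes were called. From day 70 to day 150, 5 rose, led by WWC1 (1.70 ± 0.14) and TAOK1 (1.21 ± 0.16), and none fell, beside 33.3% of all genes called.

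Of 11 upstream polarity and adhesion genes, the crumbs gene CRB1 set ROs apart. CRB1, which holds the outer limiting membrane between photoreceptors and Müller glia, stood at 0.283 FPKM in hiPSCs, 105 in D70-ROs, 48.0 in D150-ROs, 1.07 in P1-iMGCs and 0.267 in P5-iMGCs. Its log2 fold changes were 8.36 ± 0.16 and 6.96 ± 0.13 against hiPSCs, −1.40 ± 0.08 from day 70 to day 150, and −5.04 ± 0.08 and −6.95 ± 0.09 in iMGCs against D150-ROs. CRB2 fell in iMGCs as well (−3.24 ± 0.11 and −4.14 ± 0.11), while DLG1, a scaffold of the Scribble complex, rose (2.23 ± 0.05 and 2.53 ± 0.05), as did the cadherin FAT4 (1.23 ± 0.05 and 1.39 ± 0.06). These folds and counts include genes that averaged under 1 FPKM in one group and passed the filter only through the other, CRB1 and FAT4 against hiPSCs, CRB2 in P1-iMGCs, and CRB1 and CRB2 in P5-iMGCs. In all 2 rose and 4 fell in P1-iMGCs, and 3 rose and 4 fell in P5-iMGCs. Of all genes, 44.1% and 44.6% were called there, 43.5% and 58.8% at day 70 and day 150 against hiPSCs, and 33.3% between these days. With limma on log2(FPKM + 1), PATJ (0.21) was not called and SCRIB (−1.16) was called lower in P5-iMGCs vs D150-ROs, unlike with edgeR. At day 70 against hiPSCs 3 rose and 2 fell, with FAT4 (2.93 ± 0.22) higher and the junction gene PATJ (−2.29 ± 0.14) lower. At day 150 the count was 5 and 2, with FAT4 higher (3.70 ± 0.13) and PATJ (−1.91 ± 0.12) and LLGL1 (−1.76 ± 0.09) lower. From day 70 to day 150 it was 3 and 2, with DLG1 (1.32 ± 0.12) higher and LLGL1 (−1.10 ± 0.08) lower.

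Of 8 other binding partners of YAP, TAZ or TEAD, 6 passed the filter in iMGCs vs D150-ROs, and 3 were higher and none lower at each passage. Of all genes, 44.1% and 44.6% were called in these comparisons. VGLL3, a vestigial-like cofactor that competes for TEAD proteins, rose by 5.60 ± 0.07 (1.15 to 30.7 FPKM, adjusted p = 2.14e-18) at passage 1 and by 5.15 ± 0.08 at passage 5. AMOTL1, a paralog of AMOTL2, rose by 1.66 ± 0.05 at passage 1, and WTIP, a LIM protein of the AJUBA family, by 1.63 ± 0.13 at passage 5. With limma on log2(FPKM + 1), AMOTL1 (0.97 and 0.29) and WTIP (0.77 and 0.68) fell short of 2-fold at passages 1 and 5. VGLL4 was called lower by limma at passage 1 (−1.09). Before culture, AMOT rose (1.39 ± 0.21) and LIMD1 (−1.47 ± 0.15) and WTIP (−1.26 ± 0.17) fell from hiPSCs to D70-ROs, among 5 tested. In D150-ROs vs hiPSCs 1 of 6, WTIP, fell (−1.67 ± 0.15). None of 5 was called from day 70 to day 150 by edgeR, DESeq2 or limma, and 3 had an unadjusted p under 0.05 by edgeR. Of all genes, edgeR called 43.5% and 58.8% against hiPSCs at day 70 and day 150, and 33.3% between these days.

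Cell-cycle genes were read beside the pathway because of its role in growth, as a list of 12. They fell with differentiation, 8 of 12 from hiPSCs to D70-ROs with 2 higher, and 10 of 12 from D70-ROs to D150-ROs with none higher. Of all genes, 43.5% and 33.3% were called in these comparisons, and 58.8% in D150-ROs vs hiPSCs. In D150-ROs vs hiPSCs 10 of 12 were lower, led by the mitotic kinases AURKB (−5.96 ± 0.17, 112 to 2.26 FPKM) and PLK1 (−5.63 ± 0.15, 133 to 3.57 FPKM), and CCNE2 was higher (1.54 ± 0.24). The largest falls to day 70 were PLK1 (−3.52 ± 0.13) and AURKB (−2.99 ± 0.13), beside rises of CCNE2 (1.35 ± 0.41) and CCND1 (1.28 ± 0.12), and from day 70 to day 150 AURKB (−2.97 ± 0.23) and BIRC5 (−2.47 ± 0.15). In P1-iMGCs vs D150-ROs 3 were higher and 1 lower, and in P5-iMGCs 2 and 1, where 44.1% and 44.6% of all genes were called. CCND1, the cyclin D1 gene of entry into the cycle, rose by 2.34 ± 0.07 (27.7 to 89.96 FPKM, adjusted p = 6.92e-14) and 2.55 ± 0.07 (to 100.3 FPKM), and the mitotic cyclin CCNB1 by 1.46 ± 0.11 and 1.32 ± 0.11. CCNE2 fell (−1.18 ± 0.22 and −1.49 ± 0.25), and was under 1 FPKM in P5-iMGCs. On the FPKM scale (limma) the split in each passage was 1 higher and 2 lower.

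Some of the calls named for these lists hold on the TMM scale only. With limma on log2(FPKM + 1), WWC2 (0.78 and 0.89), FAT4 (0.43 and 0.53) and CCNB1 (0.75 and 0.59) were short of 2-fold in P1- and P5-iMGCs vs D150-ROs, as were AMOTL1 at passage 1 (0.97) and WTIP at passage 5 (0.68). Before culture the same held for LATS1 (0.75), CCNE2 (0.50) and WTIP (−0.91) in D70-ROs vs hiPSCs and for LLGL1 (−0.84) from day 70 to day 150. The reverse held for F3 (−1.27) and FJX1 (−1.35) in P1-iMGCs and for FJX1 (−1.51) and LATS1 (−1.52) in P5-iMGCs, which limma called lower.

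From P1- to P5-iMGCs no gene of the kinase, polarity, partner or cell-cycle lists was called by edgeR, DESeq2 or limma. At an unadjusted p under 0.05 edgeR had 6 of 15 kinases and scaffolds, 5 of 9 polarity genes, 5 of 6 partners and 5 of 11 cell-cycle genes. The share of all genes at that limit was not counted. At an adjusted p under 0.05 alone the numbers were 6, 4, 5 and 5, beside 30.7% of all genes.

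**Figure D5:**
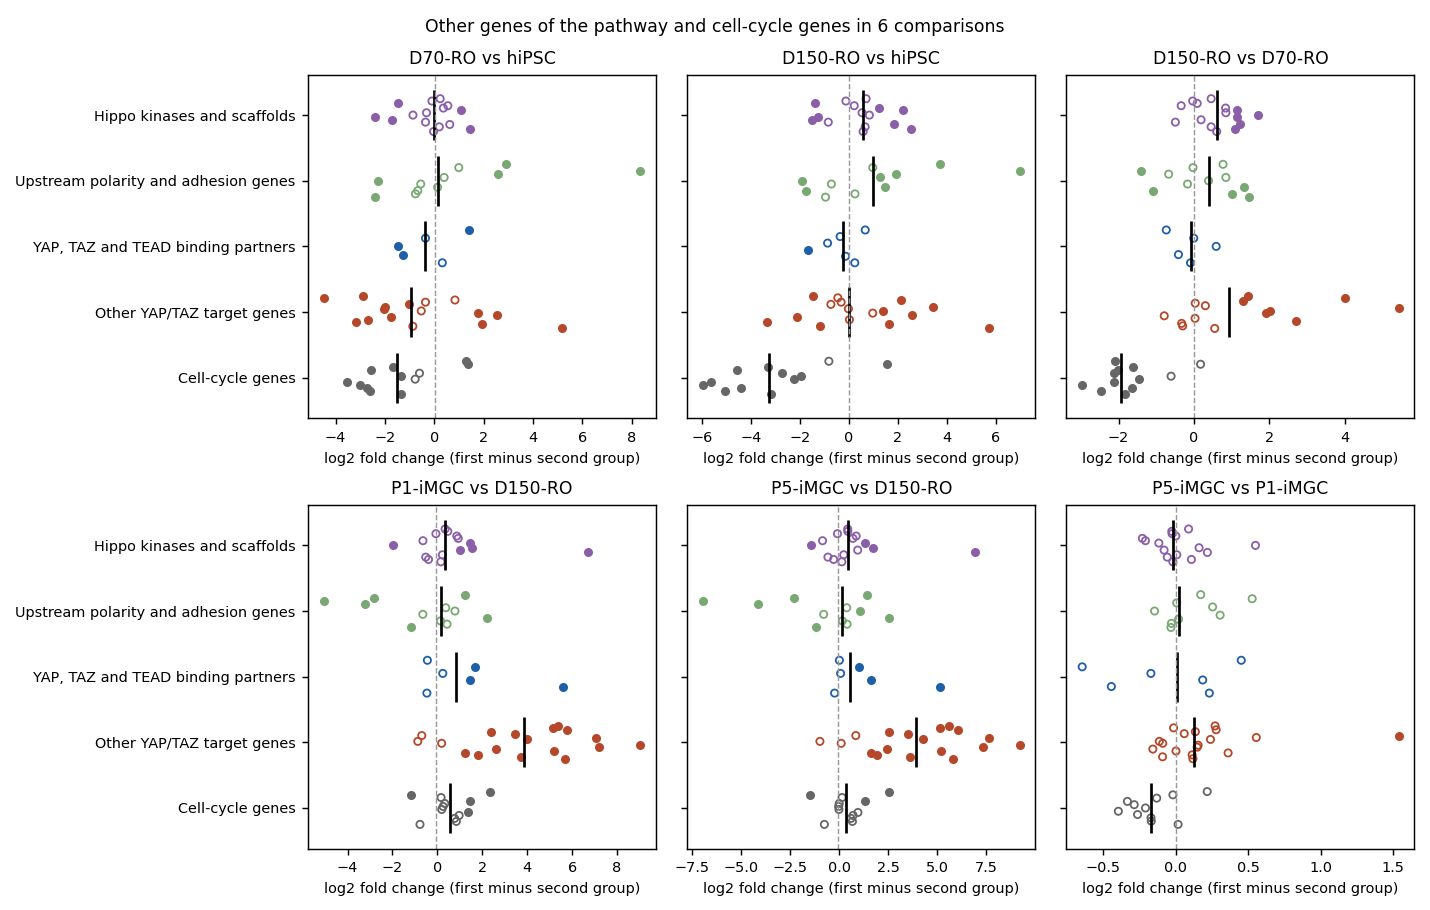
Log2 fold change on the TMM scale (x axis, first minus second group named above each panel, each panel with its own range) of the genes of 5 lists (y axis): 1 point per gene tested, filled where called, a black line at the list's median and a dashed line at the median of all genes tested. The target list has its median at 3.86 in P1-iMGCs against D150-ROs, and the cell-cycle list at −3.26 in D150-ROs against hiPSCs.

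The plot of the lists sets their medians side by side. In D150-ROs vs D70-ROs they were 0.60 for kinases and scaffolds, 0.39 for polarity genes, −0.09 for partners, 0.93 for targets and −1.92 for cell-cycle genes, beside −0.01 over all genes tested. In P1-iMGCs vs D150-ROs they were 0.34, 0.14, 0.85, 3.86 and 0.55.

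Over the 15 libraries, the genes most like YAP1 by Pearson's r of log2(FPKM + 1) among 13914 genes were ERGIC1 (0.943), RGS10 (0.938) and GTF2E2 (0.932). Those most like WWTR1 were ANKIB1 (0.989), PGRMC2 (0.988) and IL13RA1 (0.988). The libraries form 5 groups of 3, so these values mostly compare 5 group means, and no p is given.

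Some members share sequence with neighbours. The exons of YAP1 and WWTR1 overlap antisense genes by 628 and 795 bases, those of TEAD2 overlap CD37 on the opposite strand by 319 bases, and those of AMOTL2 and AJUBA overlap other genes on the same strand by 187 and 50 bases. Since no source says that counting used strand, reads from these stretches cannot be told apart.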

How the data were processed

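For the authors' tables, paired-end poly(A) reads were aligned (HISAT2), transcripts assembled (StringTie) and gene levels estimated (RSEM). Versions, genome build and annotation are not given in the sources used here. The deposited expected counts are RSEM's estimates of reads per gene without normalization, and the deposited FPKM values were scaled by the authors for length and mapped fragments. The stages and the iMGC passages stand in separate tables, which were joined for the comparisons of iMGCs with D150-ROs, so FPKM levels are set across tables there. Another table was left out, since its 6 iMGC columns name no passage.

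Identifiers were matched to GENCODE 29 (19684 of 19684). Expected counts were rounded and tested with edgeR 4.0.16 in R 4.3.3, fitting each pair of groups alone with no covariate, and keeping genes that reached 1 FPKM in 3 or more of the 6 libraries. Standard errors were derived from the quasi-likelihood F statistics. The alternatives were DESeq2 1.42.0, limma 3.58.1 on log2(FPKM + 1) and log2(FPKM + 0.1), other size factors, no filter, a test against a 2-fold change, removal of a trend with transcript length, all 15 libraries in 1 fit, a replicate block and each library left out. The tests were tested on simulated data in which 200 genes were changed 4-fold. All 10 members are named, and from each other list the 2 called genes that rose most and the 2 that fell most per comparison, the 3 genes most like YAP1 and WWTR1, and marker genes where a label was checked. Members and lists were chosen with earlier results of these data known. Some genes that this rule names are not reported here.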

Additional observations from a re-analysis of the deposited data

How the results depend on the processing

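Of 938 values of the members under alternatives, 872 kept their direction and their side of the limits, 26 fell short, 15 passed and 25 changed sign. The counts of members called stayed within 1.5 times of those reported except here. With limma on log2(FPKM + 1) and on log2(FPKM + 0.1), 4 members were called in P1-iMGCs vs D150-ROs and 4 in P5-iMGCs vs D150-ROs. Against a 2-fold change 2 were called in D150-ROs vs D70-ROs. Leaving out 1 library at a time, counts ranged from 3 to 5 (D70-RO vs hiPSC, with 5 without D70-RO replicate 2), 6 to 8 (D150-RO vs hiPSC), 3 to 5 (D150-RO vs D70-RO), 6 to 8 (P1-iMGC vs D150-RO), 7 to 8 (P5-iMGC vs D150-RO) and 0 to 0 (P5-iMGC vs P1-iMGC). With upper-quartile factors 1 other target gene was lower in P5-iMGCs vs D150-ROs. The cause was not tested. By expected counts in place of FPKM, WWTR1 held 11.1% (hiPSC) and 32.4% (P1-iMGC) of its pair. The lengths of YAP1 and WWTR1 are nearly equal (4083 and 4087 bases), and the cause of this difference was not tested. TEAD1 held 14.1%, 48.0%, 74.5%, 81.5% and 81.3% of the TEAD sum in hiPSCs, D70-ROs, D150-ROs, P1- and P5-iMGCs. Counts weigh long transcripts more, and TEAD1 is the longest of the TEAD genes.

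Signs changed for differences near 0 and for those moved by the FPKM scale. YAP1 in D70-ROs vs hiPSCs was 0.090 with upper-quartile factors, 0.085 and 0.087 with limma (pseudocounts 1 and 0.1), and −0.12 to 0.13 with a library left out. In D150-ROs vs D70-ROs TEAD3 was −0.017 with upper-quartile factors, −0.0043 with the length trend removed and −0.044 to 0.28 with a library left out. TEAD4 there was 0.021 and 0.049 with limma, 0.24 with the length trend removed and −0.49 to 0.18 with a library left out, and AJUBA 0.052 and 0.056 with limma. In P1-iMGCs vs D150-ROs TEAD2 was 0.10 with the length trend removed and AMOTL2 −0.12 and −0.13 with limma. In P5-iMGCs vs D150-ROs TEAD3 was −0.00057 and −0.00062 and TEAD2 −0.52 and −0.56 with limma, and TEAD2 −0.071 to 0.24 with a library left out (−0.071 without D150-RO replicate 3). LATS2 in P5-iMGCs vs P1-iMGCs was −0.051 to 0.028 with a library left out (0.028 without P5-iMGC replicate 1).

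Replicate numbers were not taken as a pairing, since deviations of equally numbered libraries correlated between −0.079 and 0.35. With the replicate block the members called were 3, 7, 4, 8, 7 and 0 in the 6 comparisons, the same counts as without it, and it changed no call of a member. Depth limits TEAD4 in ROs and ANKRD1 in hiPSCs and D70-ROs, where a group holds 13 to 90 counts.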
